A study of Mus musculus with 10 samples.

Results

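The Ly49 receptors *Klra1* to *Klra9* were followed in whole uteri of mice at gestation day (GD) 3.5, before implantation. The 9 genes were taken by symbol from the 45706 Ensembl identifiers in the count table, and all 9 were found and passed the filter that left 25146 genes for testing. Uterine RNA of 10 adult females was sequenced, of which 5 were *Arid1a f/f* (control) and 5 were *Ltf iCre/+ Arid1a f/f* (called knockout here). Both genotypes carried the floxed *Arid1a* allele in 2 copies, and the knockout mice also carried 1 *Ltf iCre* allele. This allele expresses Cre recombinase from the lactoferrin locus and deletes *Arid1a*, a subunit of the SWI/SNF chromatin remodeling complex, in the endometrial epithelium. Per the study's discussion, *Ltf iCre* can reportedly also be active in neutrophils and further cells of the myeloid lineage. Whether *Arid1a* was deleted in such cells of these uteri was not tested. The libraries hold RNA of all cells of the uterus, so the blood-derived cells in which *Klra* genes are known to be expressed were measured together with the epithelium. Per the study's methods the background was mixed, from the strains C57BL/6, 129S6/SvEvTac, 129P2/OlaHsd and 129S1/SvImJ, and the Ly49 haplotype of each mouse is not given in the sources used here.

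Ly49 receptors are lectin-like proteins on the surface of natural killer (NK) cells that bind MHC class I molecules and related ligands. Inhibitory members carry a tyrosine motif (ITIM) near the start of the protein that recruits phosphatases such as SHP-1, while activating members lack it and signal through the adaptor DAP12. Single NK cells express different combinations of these genes, and the number and sequence of the genes differ between mouse strains. Uterine NK cells of mice use them to read MHC class I. Per the study's introduction, uterine NK cells are most of the lymphocytes of the human decidua. In mice it places their appearance by shortly after implantation, a later stage than that of these uteri.

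The difference between inhibitory and activating members is visible at the start of the coding sequences, which are shown for the most abundant members and for *Klra1*. The first bases of the annotated GENCODE transcripts (release M21, GRCm38) are given from 5′ to 3′, and the capitals mark the 6 codons at the position of the ITIM.
Klra1: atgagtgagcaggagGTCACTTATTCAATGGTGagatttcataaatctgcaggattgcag
Klra7: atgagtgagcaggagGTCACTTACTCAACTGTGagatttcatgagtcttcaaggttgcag
Klra2: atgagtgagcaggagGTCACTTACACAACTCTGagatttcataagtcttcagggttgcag
Klra4: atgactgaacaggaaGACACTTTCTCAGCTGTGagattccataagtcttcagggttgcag
Klra8: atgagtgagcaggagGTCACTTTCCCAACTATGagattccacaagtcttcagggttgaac
The ITIM was encoded in 7 members, *Klra1*, *Klra2*, *Klra3*, *Klra5*, *Klra6*, *Klra7* and *Klra9*, and not in *Klra4* and *Klra8*, which encode the activating receptors Ly49D and Ly49H. The third of the capital codons was TAC or TAT in the 7 members with the motif and TTC in *Klra4* and *Klra8*.

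All 9 genes lie on the minus strand of chromosome 6 in GRCm38. From *Klra5* (chr6:129898996-129917650) to *Klra1* (chr6:130363917-130386874) they form a cluster, with *Klra6* (chr6:130013033-130026954), *Klra4* (chr6:130043731-130067271), *Klra8* (chr6:130115226-130129898), *Klra9* (chr6:130178675-130193112), *Klra7* (chr6:130218605-130233322) and *Klra3* (chr6:130323289-130337574) in between. The other *Klra* genes *Klra11-ps*, *Klra14-ps*, *Klra10* and *Klra13-ps* lie among them. *Klra2* stands apart from this cluster (chr6:131219223-131247362). No exon of the 9 genes overlaps another annotated gene.

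The members resemble each other closely enough that short reads can fit more than 1 of them. Coding sequences of *Klra3* and *Klra9* were 95.9% identical, those of *Klra5* and *Klra6* 91.9%, and *Klra2* was the most distant, with 75.8% identity to its nearest member *Klra7*. The counts hold uniquely mapped reads only, so a fragment that matches 2 genes is lost from both. Of all 50-base windows of the annotated transcripts, the share also present in another gene was 33.1% for *Klra8*, 31.5% for *Klra9*, 20.7% for *Klra3* and 12.3% for *Klra7*. It was 4.68% for *Klra4*, 2.98% for *Klra1*, 2.62% for *Klra6*, 0.655% for *Klra5* and 0 for *Klra2*. All 155 shared windows of *Klra7* matched the pseudogene *Klra13-ps*, and 104 windows of its coding sequence were among them. The first of these, at coding bases 284 to 333 of *Klra7*, is printed as an example of sequence that does not tell the genes apart.
Klra7 and Klra13-ps: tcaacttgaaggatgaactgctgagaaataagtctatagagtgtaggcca
The shares of *Klra8*, *Klra9* and *Klra3* were the highest of the members, but how many read pairs were lost was not measured, and the effect of strain alleles on the counts was not tested.

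Gene counts summed to 59296537 in the shallowest and to 72702411 in the deepest uterus. The genotypes were compared by edgeR (quasi-likelihood test) over all 25146 genes, with Benjamini-Hochberg adjustment and a threshold of 0.05, and levels are given as CPM, counts scaled to the same library total for every uterus, on TMM library sizes. Of all tested genes, 4.51% passed as lower and 5.19% as higher in knockout uteri, and the median log2 fold change was 0.03. The 12 uterine tissue markers, among them *Epcam*, *Esr1*, *Pgr* and *Acta2*, had mean counts of at least 9718. The targeted gene *Arid1a* stood at 251, 210, 213, 192 and 197 CPM in control uteri 1 to 5 and at 208, 191, 179, 183 and 165 CPM in knockout uteri 1 to 5. Its log2 fold change was -0.20 (SE 0.09) with an edgeR adjusted p of 0.201, and the genotypes overlapped.

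In control uteri 3 Ly49 genes stood above the rest. Per kilobase of exon, *Klra4* reached 7.27 ± 2.08 CPM per kb (SD, n = 5), *Klra8* 5.14 ± 1.74 and *Klra7* 4.28 ± 1.81. These 3 overlapped each other in their ranges over the 5 uteri, and each was above the highest control value of *Klra2*, which had a mean of 1.38 CPM per kb. Below it came *Klra3* at 1.16, *Klra9* at 0.879, *Klra1* at 0.734, *Klra5* at 0.458 and *Klra6* at 0.195 CPM per kb, with overlap between each neighbouring pair. In knockout uteri the order began with *Klra8* at 3.63 ± 2.90 CPM per kb, followed by *Klra2* at 2.86 ± 1.98, *Klra4* at 2.76 ± 1.68 and *Klra7* at 1.68 ± 0.878, all with overlapping ranges. *Klra3* (0.893) and *Klra9* (0.577) followed and overlapped, and *Klra1* (0.239), *Klra5* (0.138) and *Klra6* (0.103) formed the lowest 3.

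Of the 9 members, 4 fell in knockout uteri and 0 rose, against 4.51% and 5.19% of all tested genes. The 4 were *Klra4*, *Klra7*, *Klra1* and *Klra5*, that is 1 activating receptor and 3 receptors with an ITIM. The log2 fold change was negative for 8 of 9 members with a median of -0.92, beside 0.03 over all tested genes. Adjusted p-values of the 4 lay close under the threshold, between 0.0378 and 0.0492. DESeq2 also placed the same 4 below the threshold, where 9.15% of its 21563 genes were lower. When 1 uterus was left out at a time, between 0 and 2 of the 9 members passed. In whole uterus, fewer NK cells and less RNA per cell cannot be told apart.

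**Figure D1:**
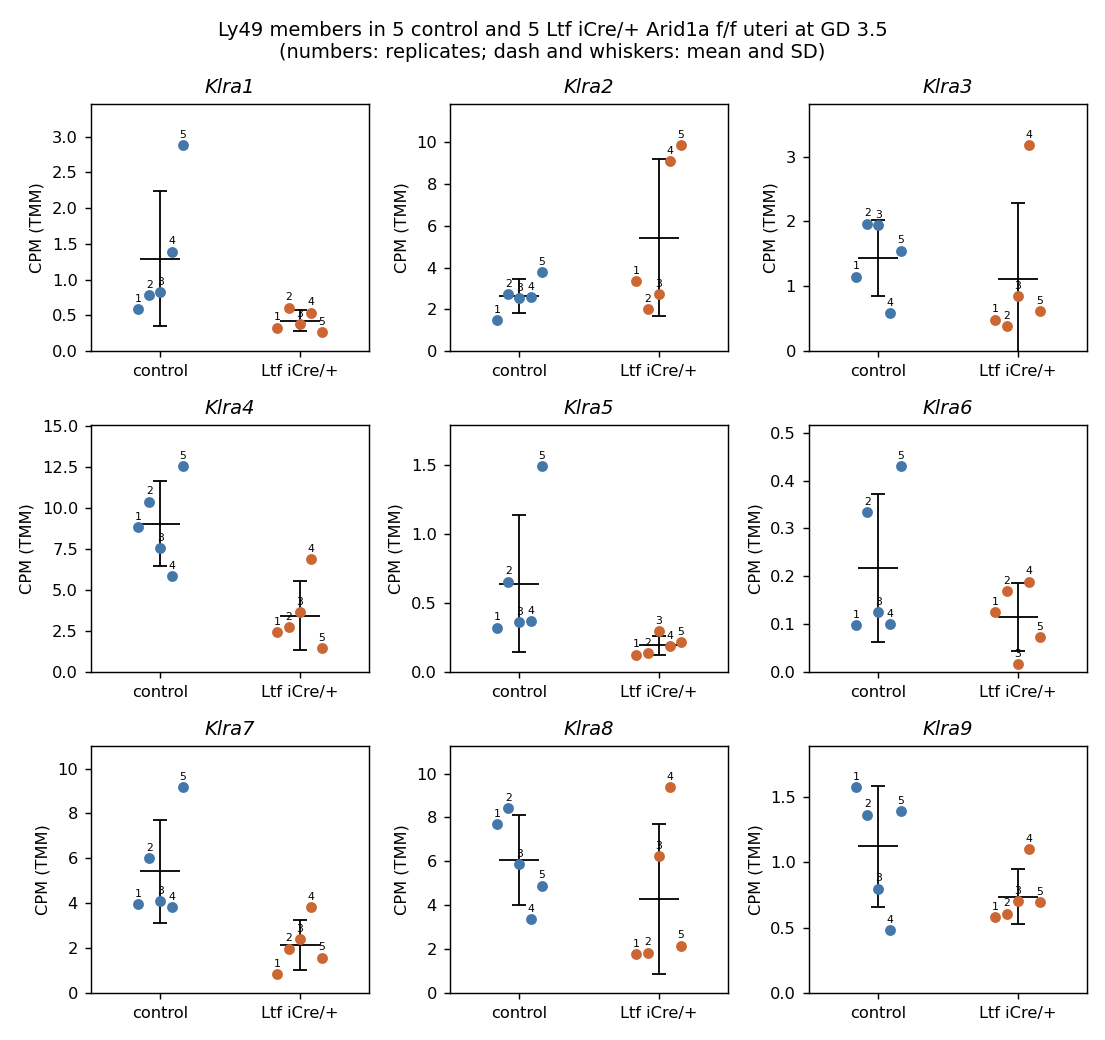
CPM on TMM library sizes of each Ly49 member in every uterus, with a linear axis from 0 for each gene. Blue points are controls and orange points knockout uteri (marked Ltf iCre/+), small numbers are the replicate, and the dash and whiskers give the mean and SD (a whisker that would pass below 0 ends there); *Klra5* and *Klra7* did not overlap between the genotypes, and knockout uterus 4 was the highest of its genotype for 6 of the 9 genes.

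*Klra4* encodes Ly49D, an activating receptor that pairs with DAP12 and recognises an H2-D allele. Its level was 8.83, 10.4, 7.55, 5.87 and 12.6 CPM in control uteri 1 to 5 and 2.43, 2.72, 3.66, 6.91 and 1.46 CPM in knockout uteri 1 to 5. In 4 of the 5 knockout uteri *Klra4* was below every control, and uterus 4 lay between control uteri 4 and 3. The mean fell 2.63-fold, from 9.05 ± 2.59 to 3.44 ± 2.10 CPM (SD, n = 5), with a log2 fold change of -1.40 (SE 0.37) and an edgeR adjusted p of 0.0378. Permuting the uteri (exact permutation test, two-sided, on log2 CPM) gave *Klra4* an unadjusted p of 0.0159. Without knockout uterus 4 the log2 fold change of *Klra4* was -1.82 (adjusted p = 0.00965), and the call was also kept without control uterus 4 or knockout uterus 5. It was lost without control uterus 1, 2, 3 or 5 or knockout uterus 1, 2 or 3, with edgeR adjusted p-values from 0.0588 to 0.0884.

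*Klra7* encodes Ly49G, an inhibitory receptor. It stood at 3.96, 6.02, 4.07, 3.83 and 9.19 CPM in control uteri 1 to 5 and at 0.831, 1.98, 2.39, 3.82 and 1.58 CPM in knockout uteri 1 to 5. Every knockout uterus was below every control uterus, although knockout uterus 4 (3.82 CPM) came close to control uterus 4 (3.83 CPM). The mean fell 2.55-fold, from 5.42 ± 2.29 to 2.12 ± 1.11 CPM (SD, n = 5), with a log2 fold change of -1.35 (SE 0.39) and an edgeR adjusted p of 0.0492. The exact permutation p was 0.00794, the smallest that 5 uteri against 5 allow. This call was kept only when knockout uterus 4 was left out (-1.68, adjusted p = 0.0262). It was lost without any of the other 9 uteri, with edgeR adjusted p-values from 0.0612 to 0.116, the highest of them without control uterus 5, and without a filter on low counts, where the adjusted p was 0.0505.

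*Klra1* and *Klra5* were also lower, at lower counts. *Klra1*, which encodes the inhibitory receptor Ly49A, stood at 0.587, 0.781, 0.830, 1.39 and 2.89 CPM in control uteri 1 to 5 and at 0.329, 0.608, 0.376, 0.537 and 0.260 CPM in knockout uteri 1 to 5. The mean fell 3.06-fold, with a log2 fold change of -1.61 (SE 0.45) and an edgeR adjusted p of 0.0445, and 4 of 5 knockout uteri were below every control. Control uteri 4 and 5 were the 2 highest and knockout uterus 2 reached above control uterus 1. The call was kept without control uterus 1 or knockout uterus 2 and lost without any of the other 8 uteri, with edgeR adjusted p-values from 0.0584 to 0.0899. Without control uterus 5, the log2 fold change of *Klra1* was -1.09.

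*Klra5* encodes Ly49E, known as the Ly49 receptor of fetal NK cells. Its level was 0.322, 0.655, 0.360, 0.369 and 1.49 CPM in control uteri 1 to 5 and 0.125, 0.135, 0.294, 0.189 and 0.217 CPM in knockout uteri 1 to 5. The genotypes did not overlap, as was the case for 2 of the 9 members (*Klra5* and *Klra7*) and for 5.16% of all tested genes in this direction (5.53% in the other, with 0 members). The mean fell 3.31-fold, with a log2 fold change of -1.73 (SE 0.48) and an edgeR adjusted p of 0.0443, at a mean of 28.5 counts per uterus. Control uterus 5 stood far above the other 4 controls, and without it the log2 fold change was -1.15 with an adjusted p of 0.0925. The call was kept without control uterus 1 or knockout uterus 3 and lost without any of the other 8, with edgeR adjusted p-values from 0.0553 to 0.0925.

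*Klra8* encodes Ly49H, an activating receptor known for recognising a cytomegalovirus protein. It stood at 7.69, 8.43, 5.88, 3.38 and 4.90 CPM in control uteri 1 to 5 and at 1.76, 1.84, 6.23, 9.40 and 2.16 CPM in knockout uteri 1 to 5. Knockout uteri 1, 2 and 5 were below every control, uterus 3 lay within the controls and uterus 4 was above all of them. The log2 fold change was -0.50 (SE 0.48) with an edgeR adjusted p of 0.566. Thus of the 2 activating receptors only *Klra4* passed the threshold, and the difference between their changes was not tested. The counts of *Klra4* per count of *Klra8* were 1.15, 1.24, 1.29, 1.74 and 2.57 in control uteri 1 to 5 and 1.38, 1.48, 0.588, 0.736 and 0.678 in knockout uteri 1 to 5, which overlap.

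*Klra3*, *Klra9* and *Klra6* encode the inhibitory receptors Ly49C, Ly49I and Ly49F. *Klra3* stood at 1.15, 1.97, 1.94, 0.582 and 1.55 CPM in control uteri 1 to 5 and at 0.486, 0.389, 0.850, 3.18 and 0.622 CPM in knockout uteri 1 to 5, with knockout uterus 4 the highest of all 10. Its log2 fold change was -0.37 (SE 0.57) with an edgeR adjusted p of 0.736, and without knockout uterus 4 it was -1.29 with an adjusted p of 0.0716. *Klra9* ranged from 0.483 to 1.58 CPM in controls and from 0.580 to 1.10 CPM in knockout uteri, with a log2 fold change of -0.61 (SE 0.34) and an edgeR adjusted p of 0.287. *Klra6*, with a mean of 11.3 counts per uterus, ranged from 0.0979 to 0.431 CPM and from 0.0164 to 0.189 CPM, with a log2 fold change of -0.92 (SE 0.62) and an edgeR adjusted p of 0.389.

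*Klra2* encodes Ly49B, which is known from myeloid cells rather than NK cells, and it was the only member with a positive log2 fold change. It stood at 1.48, 2.75, 2.52, 2.59 and 3.79 CPM in control uteri 1 to 5 and at 3.37, 2.01, 2.75, 9.12 and 9.88 CPM in knockout uteri 1 to 5. Knockout uteri 4 and 5 were above every control and the other 3 lay among the controls. The log2 fold change was 1.05 (SE 0.45) with an edgeR adjusted p of 0.163, and no uterus left out brought it past the threshold. Macrophage and monocyte markers (10 genes, of which 0 passed the threshold) summed to 305 to 595 CPM in controls and to 478 to 1568 CPM in knockout uteri, with uteri 4 and 5 again the highest. Per count of *Csf1r*, the receptor of macrophage colony-stimulating factor, *Klra2* stood at 0.0499, 0.0512, 0.0531, 0.0504 and 0.0669 in control uteri 1 to 5. In knockout uteri 1 to 5 this ratio was 0.0791, 0.0485, 0.0611, 0.154 and 0.0764, so that uteri 1, 4 and 5 were above every control. The part of the macrophage markers in the level of *Klra2* was not tested.

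Another 5 *Klra* genes had counts, *Klra17*, *Klra10*, *Klra11-ps*, *Klra13-ps* and *Klra14-ps*, and 0 of 5 passed the threshold in either direction, with a median log2 fold change of -0.47. *Klra13-ps* is annotated as a transcribed pseudogene and had the most counts of all *Klra* genes, a mean of 523 per uterus. It stood at 13.3, 11.1, 8.38, 3.64 and 6.65 CPM in control uteri 1 to 5 and at 5.08, 4.23, 7.19, 15.3 and 2.42 CPM in knockout uteri 1 to 5, with knockout uterus 4 the highest of all (log2 fold change -0.33 (SE 0.47), edgeR adjusted p = 0.715). *Klra17* encodes Ly49Q, known from plasmacytoid dendritic cells. It was high in control uteri 4 and 5 and in knockout uterus 5, between 2.387 and 2.698 CPM, and at 0.304 to 0.725 CPM in the other 7 uteri (log2 fold change -0.73 (SE 0.71), edgeR adjusted p = 0.566). The log2 fold changes of *Klra14-ps* and *Klra10* were -0.47 (SE 0.42) and -0.08 (SE 0.51), and *Klra11-ps* had a mean of 3.3 counts per uterus.

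**Figure D2:**
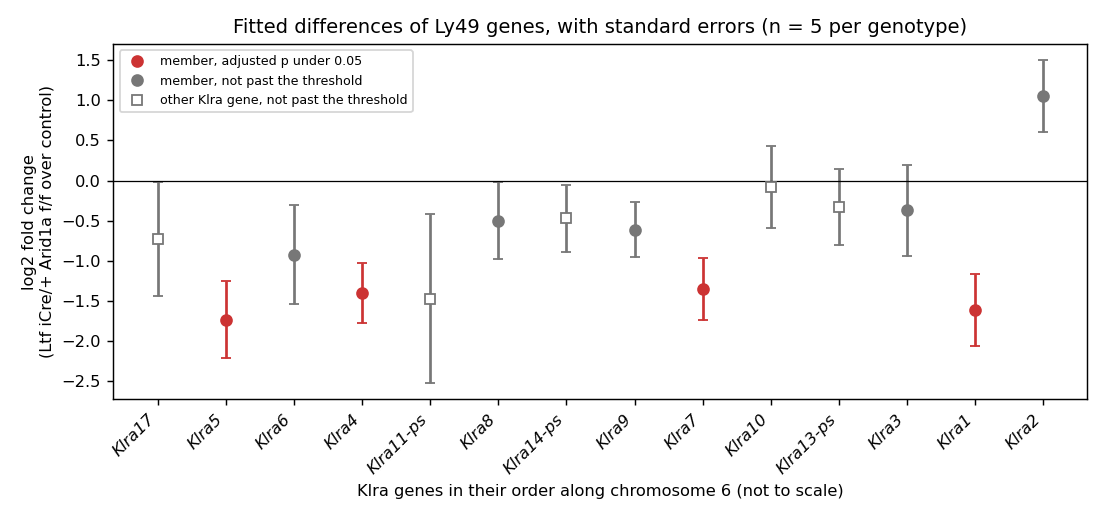
Fitted log2 fold change with its standard error (n = 5 per genotype) of the 14 *Klra* genes with counts, in their order along chromosome 6. Filled circles are the 9 members and open squares the other 5; the 4 red circles (*Klra5*, *Klra4*, *Klra7*, *Klra1*) passed the threshold and have genes between them that did not, and *Klra2* at the right end is the only one above 0.

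The 4 genes past the threshold were not direct neighbours in the cluster. *Klra6* lies between *Klra5* and *Klra4*. *Klra11-ps*, *Klra8*, *Klra14-ps* and *Klra9* lie between *Klra4* and *Klra7*, and *Klra10*, *Klra13-ps* and *Klra3* lie between *Klra7* and *Klra1*. None of these genes in between passed the threshold. Their log2 fold changes were all negative, from -1.47 (SE 1.05) for *Klra11-ps*, at a mean of 3.3 counts per uterus, and -0.92 for *Klra6* to -0.08 for *Klra10*. The difference between them and the 4 genes was not tested. *Klra4* can be set against *Klra13-ps*, a pairing that was chosen after the values were seen. Counts of *Klra4* per count of *Klra13-ps* were 0.666, 0.938, 0.901, 1.61 and 1.89 in control uteri 1 to 5 and 0.478, 0.644, 0.509, 0.453 and 0.605 in knockout uteri 1 to 5. Every knockout uterus was below every control uterus in this ratio, which was the case for 0.294% of all tested genes. *Klra7* per *Klra13-ps* overlapped between the genotypes.

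The make-up of the Ly49 counts differed between the genotypes in *Klra4* and *Klra2*. The 9 members summed to 18.6 to 38.2 CPM in controls and to 10.04 to 34.5 CPM in knockout uteri, where only uterus 4 lay within the range of the controls. *Klra4* held 34.4%, 31.8%, 31.4%, 31.6% and 32.95% of this sum in control uteri 1 to 5, a narrow range, and 24.2%, 26.01%, 21.2%, 20.1% and 8.63% in knockout uteri 1 to 5. *Klra2* held 5.77%, 8.39%, 10.5%, 13.9% and 9.92% in control uteri 1 to 5 and 33.6%, 19.2%, 15.9%, 26.5% and 58.3% in knockout uteri 1 to 5. These were the members whose shares did not overlap, *Klra4* lower and *Klra2* higher. Divided by the same sum, 0.286% of all tested genes were lower and 4.53% higher without overlap. Because shares add up to a fixed total, a high share of *Klra2* lowers those of the other members. With *Klra2* left out of the sum, a step added after the values were seen, *Klra4* held 36.5%, 34.7%, 35.03%, 36.7% and 36.6% of the other 8 members in control uteri 1 to 5 and 36.5%, 32.2%, 25.2%, 27.3% and 20.7% in knockout uteri 1 to 5. On that basis knockout uterus 1 lay within the controls and the other 4 knockout uteri lay below them.

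**Figure D3:**
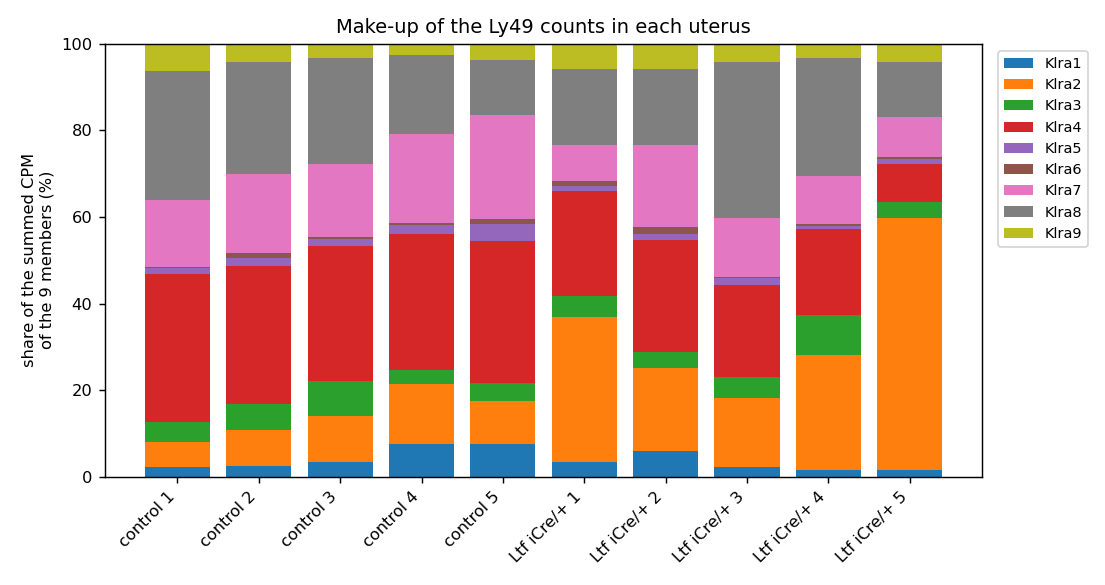
Share of the summed CPM of the 9 members that each member held, in percent, with 1 stacked bar per uterus (knockouts marked Ltf iCre/+). The *Klra4* band spans 31.4% to 34.4% in the 5 controls and 8.63% to 26.0% in the 5 knockout uteri, while the *Klra2* band spans 5.77% to 13.9% and 15.9% to 58.3%.

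Of 13 NK identity and effector genes outside the family 0 passed the threshold in either direction, and their median log2 fold change was 0.12. *Ncr1*, which encodes the NK receptor NKp46, stood at 10.8, 14.2, 9.45, 8.04 and 13.95 CPM in control uteri 1 to 5 and at 2.87, 14.9, 10.2, 15.1 and 4.95 CPM in knockout uteri 1 to 5. Knockout uteri 1 and 5 were low and uteri 2 and 4 were above every control, with uterus 3 among the controls (log2 fold change -0.23 (SE 0.40), edgeR adjusted p = 0.765). *Klrd1*, which encodes the CD94 receptor chain, had a log2 fold change of -0.18 (SE 0.29) with an edgeR adjusted p of 0.741.

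Per count of *Ncr1*, *Klra7* stood at 0.367, 0.423, 0.431, 0.477 and 0.658 in control uteri 1 to 5 and at 0.290, 0.133, 0.235, 0.253 and 0.319 in knockout uteri 1 to 5. The genotypes did not overlap, and of all tested genes 0.62% were lower without overlap on this scale. *Klra7* was the only 1 of the 9 members of which this held. *Klra4* per *Ncr1* was 0.818, 0.732, 0.799, 0.730 and 0.902 in control uteri 1 to 5 and 0.847, 0.182, 0.360, 0.459 and 0.295 in knockout uteri 1 to 5. Knockout uterus 1, where *Ncr1* was lowest, lay within the controls and the other 4 lay below them.

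Set against the mean log2 CPM of all 13 NK genes, 3 of 9 members were lower without overlap (*Klra4*, *Klra5* and *Klra7*), as were 1.13% of all tested genes. This mean joins genes with log2 fold changes of either sign, none past the threshold, from *Gzma* (-0.89 (SE 0.46)), *Eomes* (-0.63 (SE 0.31)) and *Samd3* (-0.46 (SE 0.36)) to *Gzmb* (0.40 (SE 0.56)), *Xcl1* (0.65 (SE 0.40)) and *Itga2* (1.38 (SE 0.68)). *Gzmb*, *Xcl1*, *Ccl5* and *Txk* are known from T cells too. The 9 T cell markers summed to 17.7 to 26.7 CPM in controls and to 27.5 to 78.5 CPM in knockout uteri, and the part of T cells in the mean was not tested. The log2 CPM of *Klra4* less this mean was 0.62, 0.79, 0.52, 0.43 and 0.58 in control uteri 1 to 5 and -0.31, -0.96, -0.72, -0.45 and -1.71 in knockout uteri 1 to 5. For *Klra7* the difference was -0.53, 0.00, -0.36, -0.18 and 0.13 in control uteri 1 to 5 and -1.83, -1.42, -1.33, -1.30 and -1.60 in knockout uteri 1 to 5. The spread among the knockout uteri was smaller for *Klra7* than for *Klra4*, whose lowest value was in uterus 5. *Itga2*, 1 of the 13 genes, was far above the other uteri in knockout uterus 5, and without it *Klra4* and *Klra7* still did not overlap while *Klra5* overlapped, with knockout uterus 5 at -4.03 and control uterus 1 at -4.04 (a check chosen after the data were seen).

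**Figure D4:**
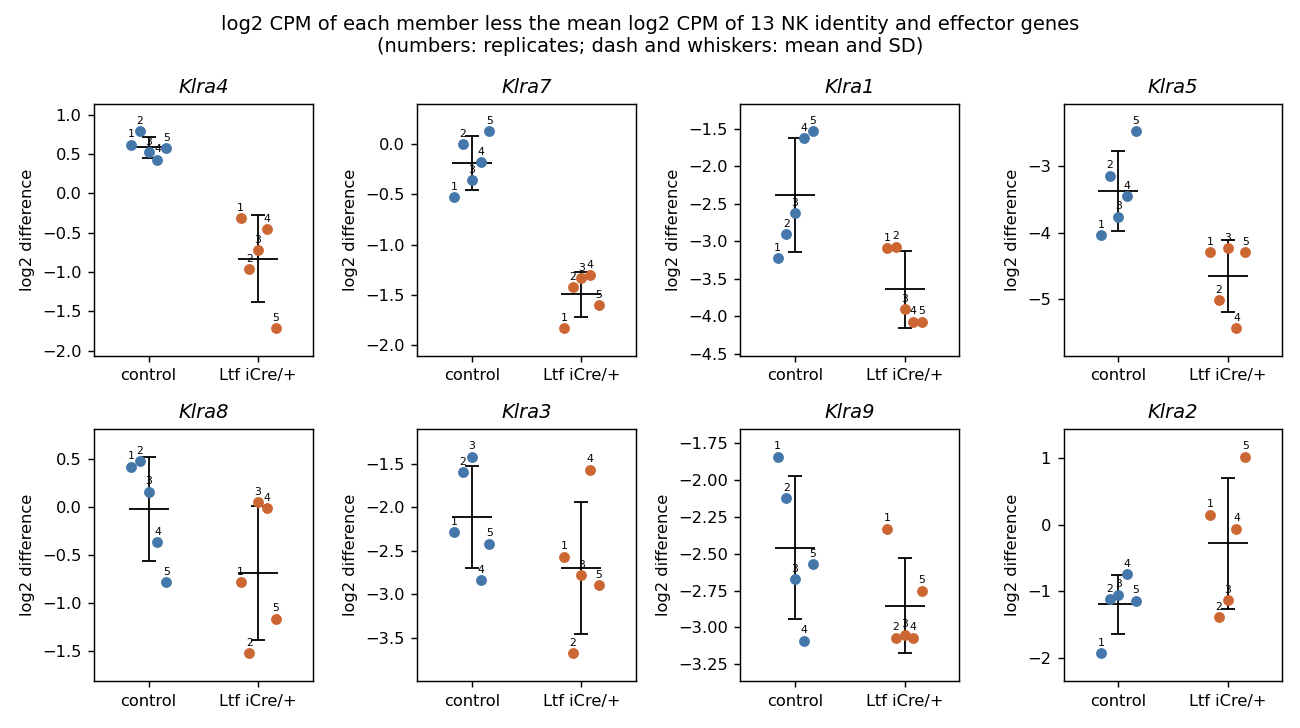
log2 CPM of 8 members less the mean log2 CPM of the 13 NK identity and effector genes in the same uterus (*Klra6*, with few counts, is not drawn). Points are uteri (knockouts marked Ltf iCre/+) with their replicate number, the dash and whiskers are the mean and SD, and axes differ between panels; *Klra4*, *Klra7* and *Klra5* separate the genotypes, whereas *Klra1*, *Klra8*, *Klra3*, *Klra9* and *Klra2* overlap.

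Other lectin-like receptors of the NK gene complex were mostly not past the threshold. Of 15 listed genes 14 were tested, 0 fell and 1 rose, *Klrb1b*, an inhibitory receptor for Clr ligands, with a log2 fold change of 1.20 (SE 0.29) and an edgeR adjusted p of 0.0275. The call of *Klrb1b* was lost without any control uterus and without knockout uterus 3 or 4, with edgeR adjusted p-values from 0.05004 to 0.0644. The median was -0.13. Lowest were *Klrc3* at -1.65 (SE 0.55), *Klri2* at -1.16 (SE 0.35), *Klrb1a* at -1.14 (SE 0.50) and *Klrc2* at -0.99 (SE 0.37). Their edgeR adjusted p-values were 0.0851, 0.0581, 0.176 and 0.111. DESeq2 placed *Klrc3*, *Klri2* and *Klrc2* below the threshold as lower, with adjusted p-values of 0.0262, 0.00723 and 0.0382, where 9.15% of its 21563 genes were lower. *Klrb1a* did not pass in DESeq2 either (adjusted p = 0.101).

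Among the signalling partners of Ly49 receptors none fell and several rose. *Tyrobp*, the DAP12 adaptor of the activating members, stood at 10.8, 18.8, 15.8, 15.7 and 23.5 CPM in control uteri 1 to 5 and at 16.6, 20.3, 24.4, 34.2 and 53.6 CPM in knockout uteri 1 to 5. Uteri 4 and 5 were the highest of the knockout uteri, as they were for *Klra2* (log2 fold change 0.82 (SE 0.31), edgeR adjusted p = 0.116). Of 8 activating signalling genes 4 rose and 0 fell, *Lat* at 2.03 (SE 0.29), *Zap70* at 1.08 (SE 0.30), *Vav1* at 0.73 (SE 0.21) and *Lcp2* at 0.70 (SE 0.17), with edgeR adjusted p-values of 0.00273, 0.0450, 0.0489 and 0.0278. The list's median was 0.72. *Lat* and *Zap70* are known from T cells as well as NK cells, and 4 of 9 T cell markers rose too (*Cd3d* 2.07, *Cd3e* 2.04, *Cd3g* 2.39 and *Cd5* 1.32 on the log2 scale). *Lat*, *Cd3d*, *Cd3e* and *Cd3g* passed whichever uterus was left out. *Zap70* was lost without any control uterus and without knockout uterus 3 or 4, and *Vav1* also without knockout uterus 5, with adjusted p-values up to 0.112. *Lcp2* was lost without control uterus 1, 2, 3 or 4 or knockout uterus 4, and *Cd5* without control uterus 2, 3, 4 or 5 or knockout uterus 1, 4 or 5, with adjusted p-values up to 0.0729. Of the inhibitory phosphatases 0 of 3 passed the threshold, with a median of 0.30, and *Ptpn6*, which encodes SHP-1, had a log2 fold change of 0.50 (SE 0.17) with an edgeR adjusted p of 0.0855.

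Of the 4 genes of MHC class I ligands 1 rose and 0 fell, and the median log2 fold change was 0.51. *H2-K1*, a classical MHC class I heavy chain, stood at 410, 493, 465, 466 and 464 CPM in control uteri 1 to 5 and at 821, 506, 557, 1175 and 744 CPM in knockout uteri 1 to 5. It rose without overlap, with a log2 fold change of 0.73 (SE 0.20) and an edgeR adjusted p of 0.0428. The call was lost without any control uterus and without knockout uterus 1, 4 or 5, with edgeR adjusted p-values from 0.0558 to 0.0937. *H2-D1* had a log2 fold change of 0.58 (SE 0.18) with an edgeR adjusted p of 0.0657. *H2-K1* was highest in knockout uterus 4, the uterus that was also highest of its genotype for *Klra3*, *Klra4*, *Klra6*, *Klra7*, *Klra8* and *Klra9*.

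Of 5 transcription factors known to govern NK maturation or Ly49 expression, 2 fell and 1 rose. *Nfil3*, needed for NK development, and *Ets1* fell, with log2 fold changes of -0.68 (SE 0.15) and -0.33 (SE 0.08) and edgeR adjusted p-values of 0.0181 and 0.0205. *Runx3* rose, with a log2 fold change of 0.80 (SE 0.18) and an edgeR adjusted p of 0.0199. *Nfil3* was lost without control uterus 2 (edgeR adjusted p = 0.0502), *Ets1* without control uterus 3 or 4 and *Runx3* without control uterus 3, 4 or 5 (up to 0.0616). The median over the 5 genes was -0.01, and these factors are known from other cell types too.

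Markers of other cells that express *Klra* genes or share their partners are given for the same uteri, and their part in the Ly49 values was not tested. The sums of the 9 T cell markers given above did not overlap between the genotypes. Of 5 genes listed for tissue-resident NK cells and ILC1, 2 rose (*Cxcr6* at 2.67 (SE 0.42) and *Il7r* at 1.47 (SE 0.26)) and 1 fell (*Itga1* at -0.68 (SE 0.16)), with edgeR adjusted p-values of 0.00433, 0.00723 and 0.0220. *Itga1* averaged 81.0 CPM in controls, beside 11.3 CPM for *Ncr1*. Which cells of the uterus expressed these 5 genes was not measured. Of 6 dendritic cell genes 1 fell (*Zbtb46*, -0.60 (SE 0.12)), with a median of 0.58. Of 4 plasmacytoid dendritic cell genes and of 4 B cell genes 0 passed, with medians of 0.13 and 0.30. Neutrophil markers summed to 5.94 to 23.1 CPM in controls, to 12.3 to 23.1 CPM in knockout uteri 1 to 4 and to 873 CPM in knockout uterus 5, and 2 of 7 rose (*Ly6g* and *Mmp8*). *Mmp8* was lost without knockout uterus 5 or any control uterus, and *Ly6g* without control uterus 2, 3, 4 or 5, with edgeR adjusted p-values from 0.0710 to 0.106. Among the 12 uterine tissue genes 3 rose, the epithelial genes *Epcam* (1.19 (SE 0.32)), *Cdh1* (0.82 (SE 0.16)) and *Krt8* (0.87 (SE 0.20)), and 1 fell, *Vim* (-0.94 (SE 0.20)). *Epcam* was lost without any control uterus and without knockout uterus 1 or 5, and *Krt8* without control uterus 2, 3 or 5, with edgeR adjusted p-values from 0.0544 to 0.0917. No gene of any list was at 0 in all libraries.

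Members varied together to different degrees over the 10 uteri. Pearson's r of log2 CPM between *Klra4* and *Klra7* was 0.90 over all 10 uteri and 0.76 after the genotype means were removed. The correlation within genotypes was 0.86 between *Klra13-ps* and *Klra8*, 0.85 between *Klra8* and *Klra3*, 0.93 between *Klra13-ps* and *Klra14-ps* and -0.69 between *Klra13-ps* and *Klra17*. *Klra1* and *Klra8* stood in different proportion in different controls, with 0.0764, 0.0926, 0.141, 0.412 and 0.589 counts of *Klra1* per count of *Klra8* in control uteri 1 to 5. Control uteri 4 and 5 stood apart from the other 3 in this ratio. These values describe 10 uteri, and genes that share sequence also share reads that could not be placed.

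The genes whose log2 CPM followed a member most closely over the 10 uteri were sought among 17699 genes with a mean of at least 20 counts, other members left out. For *Klra2* they were *Sp140* (r = 0.993), *Il10ra* (0.962), *Unc93b1* (0.957), *Phf11a* (0.948) and *Milr1* (0.948). For *Klra3* the closest was another gene of the family, *Klra14-ps* (0.901), and *Klrc3* was among the closest 5 of *Klra1* (0.931), behind *Coq3* (0.953). The closest were *Sfxn3* for *Klra4* (0.971), *Spata6* for *Klra7* (0.969), *Gm13456* for *Klra5* (0.967), *Tmsb15a* for *Klra8* (0.946) and *C230062I16Rik* for *Klra9* (0.893). For *Klra1*, *Klra4*, *Klra5* and *Klra7* such values include the difference between the genotypes, which any gene that fell would share.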

How the data were processed

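The authors made mRNA libraries from uteri of 10 adult mice and read them as pairs of 50 bp. After trimming (cutadapt 1.18, Trim Galore 0.6.4) they aligned reads to GRCm38 with STAR 2.7.3a and deposited STAR's counts of uniquely mapped reads per gene, without normalization. The annotation release and the strand column of the counts are not given in the sources used here. Symbols, positions and transcripts were taken from GENCODE M21, in which 45143 of 45706 identifiers were found.

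A gene was tested if it averaged 1 count or more per uterus. Tests were run in R 4.3.3 with edgeR 4.0.16 (TMM, quasi-likelihood test, genotype as the only factor, Benjamini-Hochberg over all tested genes). CPM values were computed from the deposited counts, and log2 CPM used a prior count of 2. Library totals of 59296537 to 72702411 left *Klra6* and *Klra5* with the fewest counts of the members. DESeq2 1.42.0, other scalings and filters, the replicate number as a block, the omission of each uterus and a two-sided exact permutation test were alternatives. The edgeR procedure was also run on counts simulated from edgeR's own estimates of each gene's spread, with an outcome that is not given here. Genes were drawn independently there, so the simulation cannot speak to uteri that deviate in many genes or to strain differences. None of the 20 pairs of libraries of the same genotype were duplicates. P-values measure the spread between the uteri of separate mice.

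Named genes were the 9 members, the other *Klra* genes with counts, *Arid1a*, and for lists of NK, signalling, ligand, regulator and cell type genes the counts with the called and a few defining genes. Members, lists and tests were chosen with earlier results of these data known. Sequences were compared with Biopython 1.88 and plots drawn with matplotlib 3.10.9.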

Additional observations from a re-analysis of the deposited data

Results flagged for a closer look

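Levels of the 9 members and their sum were examined in both genotypes for a uterus far from the other 4, which is 20 groups of 5, and chance alone gives about 1 such group in 20. There were 3. *Klra3* stood at 3.18 CPM in knockout uterus 4, with the next value of the genotype at 0.850 CPM. *Klra9* stood at 1.10 CPM in the same uterus, with the next value at 0.703 CPM. *Klra5* stood at 1.49 CPM in control uterus 5, with the next value at 0.655 CPM.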

How the results depend on the processing

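The count of 4 lower members was the same with DESeq2, with edgeR on median-ratio (RLE) library scaling and with the filterByExpr filter. No member changed direction in any fit. Without a filter on low counts 3 members were lower, since *Klra7* (log2 fold change -1.35) had an adjusted p of 0.0505. Leaving out 1 uterus at a time gave 0 to 2 lower members, 1204 to 2381 genes of all tested (2438 with all uteri) and 11 to 29 list genes (23 with all uteri). The log2 fold changes then ranged from -1.80 to -1.09 for *Klra1*, from -1.82 to -1.20 for *Klra4*, from -1.93 to -1.15 for *Klra5* and from -1.68 to -1.08 for *Klra7*. DESeq2 called 4103 genes. On log2 CPM the differences were -1.37 for *Klra1*, -1.53 for *Klra4*, -1.40 for *Klra5* and -1.42 for *Klra7*, and the exact permutation test adjusted over all genes cannot go below 0.0743, so no gene could pass it. The causes of these differences between fits were not tested.

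Deviations from the genotype mean correlated weakly between same-numbered uteri (from -0.05 to 0.13). Control uteri 2 and 5 were closest to the knockout uterus of their own number, and control uteri 1, 3 and 4 were not. Per the study's methods littermates were compared when possible. Weak correlations cannot exclude pairs of mice, and whether the numbers stand for pairs is not given in the sources used here. With the replicate number as a block 0 members were lower, with log2 fold changes of -1.40 (adjusted p = 0.114) for *Klra1*, -1.55 (0.0830) for *Klra4*, -1.54 (0.0787) for *Klra5* and -1.44 (0.0719) for *Klra7*.

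The mean of the NK genes without *Itga2* and the Ly49 sum without *Klra2* were alternatives chosen after seeing the data, and no direction changed under them. Counts limit *Klra6*, *Klra5* and *Klra1* most.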
